A study of Drosophila melanogaster with 36 samples.

Results

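Gene expression in the fat body of w1118 larvae was compared between a second and a first day of sampling. The fat body is the larval organ that stores lipid and glycogen and releases most proteins of the hemolymph, the fly's blood, and w1118 is a laboratory strain of Drosophila melanogaster with a mutated white eye colour gene that often serves as a control. The members are the 6 libraries of CT24, CT28 and CT32, called the second day here, set against the 6 of CT0, CT4 and CT8, the first day. They were chosen by genotype and time alone and make up 12 of the 36 libraries of the series, and clock phase (0, 4 or 8 h into the subjective day) entered every fit as a factor. CT stands for circadian time in hours, here of animals in constant darkness. Larvae were in the third instar, the last larval stage, males and females mixed, and each library held the fat bodies of 5 larvae, with 2 libraries per time. The labels give no larval age at any time point, so age, time in the dark and time on the food cannot be told apart in a difference between the days. Also used were the 6 w1118 libraries of CT12, CT16 and CT20, called the night here, and the 12 libraries of per0 at the 6 daytime points. The per0 larvae lack a functional period gene, a repressor of the circadian clock, and were likewise kept in darkness.

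By way of background, larvae feed through most of the third instar and then stop, wander and form a puparium. Over this time the fat body turns from growth and storage to the release of larval serum proteins, amino acid stores that are later taken back up and used to build the adult. Pulses of the steroid hormone ecdysone drive these steps, and known ecdysone targets of the fat body include the larval serum protein gene Lsp2 and Fbp1, which encodes the receptor for the uptake of these proteins. Mitochondria draw their subunits from nuclear genes and a small genome of their own, and lipid synthesis in the fat body uses acetyl groups made from sugar and reducing power in the form of NADPH.

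The 12 libraries held 16948806 to 23839836 counts assigned to genes, with 11208 to 13479 genes detected, so that 3 counts correspond to 0.126 to 0.177 CPM (the gene's counts relative to the total of its library, scaled between libraries). The fat body label was borne out by the level of apolpp, the lipoprotein precursor of the hemolymph and 1 of 14 fat body markers. It measured 12648 to 20062 CPM (median 15232) on the first day and 10988 to 18184 (median 13894) on the second. Of the 14 markers, which include storage protein genes, 6 were called higher and 2 lower on the second day, with log2 changes from -1.08 to 10.13. RNA of other organs was present at levels that varied between single libraries. The 26 testis and gonad markers summed to 9.74 to 311 CPM (median 40.5) on the first day and 11.2 to 1252 CPM (median 432) on the second, with 0 of 26 called. The 14 muscle markers summed to 665 to 5476 CPM (median 1969.6) and 393 to 2043 CPM (median 1182), and the 28 midgut markers, of which 23 were tested, to 959 to 5456 CPM (median 2711) and 424 to 6794 CPM (median 1729), with 0 called in both lists. Without CT4 and CT28, however, 7 muscle markers were called lower (median log2 change -1.74), and 0 midgut markers were called. The part of muscle RNA in the result was not tested. Within every time point the 2 libraries differed by far more than counting noise. For 1 CT0 sample the labels disagree, the title giving w1118 and the genotype field per0. It was kept as w1118, and counts without each CT0 library are given.

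Of 11394 genes tested, 521 rose and 1194 fell from the first day to the second (4.57% and 10.5%, or 15.1% together, at an adjusted p under 0.05). Adjusted p-values throughout are from edgeR's quasi-likelihood test with Benjamini-Hochberg adjustment over all genes tested. Changes are log2 of second day over first ± standard error from 12 libraries. That error is the size of the change divided by the square root of the test's F statistic. Values that involve per0 come from a fit of the daytime libraries of both genotypes. A change above 1.5-fold was called for 449 genes (3.94%), 132 higher (1.16%) and 317 lower (2.78%). Here A and B are the column letters of the 2 libraries of a time. Leaving out CT0 A or CT0 B gave 161 or 150 genes above 1.5-fold, and leaving out CT4 A, CT24 A or CT32 A gave 288, 268 or 227. Among the called genes, 136 higher and 469 lower did not overlap between the 6 libraries of each day, whereas over all genes 1.27% were higher and 4.43% lower in that sense. The differences at all 3 phases had the sign of the call in 1709 of 1715 called genes. The call itself averages these 3 differences over the same libraries, so this count is largely set by the call. The median change over all genes was 0.13, and -0.08 over the 5177 genes of at least 10 CPM, of which 411 (7.94%) were called higher and 1058 (20.4%) lower. The count of 1715 was 949 without CT0 A, 970 without CT0 B and 882 with gonad marker RNA as a covariate. Scaling by total counts in place of trimmed means shifted the median of all genes by -0.20, and the lower share of the calls was then 85.5% in place of 69.6%. Other settings gave a more even split, with 1210 higher of 2750 calls by DESeq2, 920 of 1929 with the roX covariate, 953 of 2121 over all 18 w1118 libraries and 788 of 1791 among genes passing a filter of 10 CPM.

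Storage protein genes took a larger share of the RNA pool on the second day. Together the 6 genes of the list, Lsp1alpha, Lsp1beta, Lsp1gamma, Lsp2, Fbp1 and Fbp2, took 8.71 to 30.0% of all counts on the first day (median 16.4) and 32.4 to 40.8% (median 38.0) on the second. Of these, 5 were called higher and 0 lower, with a list median of 3.51 against 0.13 over all genes. Fbp1, the receptor by which the fat body takes serum proteins back up, measured 2.63 and 2.49 CPM (CT0), 7.84 and 1.70 (CT4), and 87.3 and 9.72 (CT8) on the first day. The second-day values were 2409 and 20730.1 CPM (CT24), 7074 and 124 (CT28), and 41471 and 1796 (CT32). It was scarce in 5 of 6 first-day libraries, somewhat higher in CT8 A, and above all of them in every second-day library, of which CT28 B was lowest. Its change was 10.13 ± 1.65 log2 (adjusted p = 0.00316).

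The hexamerin Lsp2, a storage protein made late in the third instar, measured 30.6 and 15.9 CPM (CT0), 168 and 284 (CT4), and 1784 and 817 (CT8) on the first day. On the second it measured 3818 and 4692 CPM (CT24), 3023 and 2794 (CT28), and 4658 and 3835 (CT32). Its first-day level was lowest at CT0 and highest at CT8, while the second-day libraries lay close together and above all first-day ones, a change of 4.15 ± 0.98 (adjusted p = 0.0194). Fbp2, a fat body protein of the alcohol dehydrogenase family, measured 51.2 to 17670.2 CPM (median 464) on the first day and 12175 to 35076 (median 25935) on the second, and rose by 4.99 ± 1.16 (adjusted p = 0.0181), with CT8 A inside the second-day range. Lsp1alpha rose by 2.87 ± 0.65 (adjusted p = 0.0159) and Lsp1gamma by 1.52 ± 0.43 (adjusted p = 0.0413). Lsp1beta, the most abundant transcript at 53772 to 170757 CPM (median 94178) on the first day and 134735 to 167218 (median 145846) on the second, did not pass (0.71 ± 0.38, adjusted p = 0.237). These calls depended on single libraries. The call of Lsp2 was lost without CT0 A or CT4 A (adjusted p of 0.0532 to 0.0558), of Fbp2 without CT0 A, CT0 B or CT4 A (0.0503 to 0.078), of Lsp1alpha without CT0 A or CT0 B (0.0705 to 0.0805), and of Lsp1gamma without any 1 library but CT8 A (0.0588 to 0.214). The list count fell to 1 without CT0 A and to 2 without CT0 B or CT4 A.

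**Figure D1:**
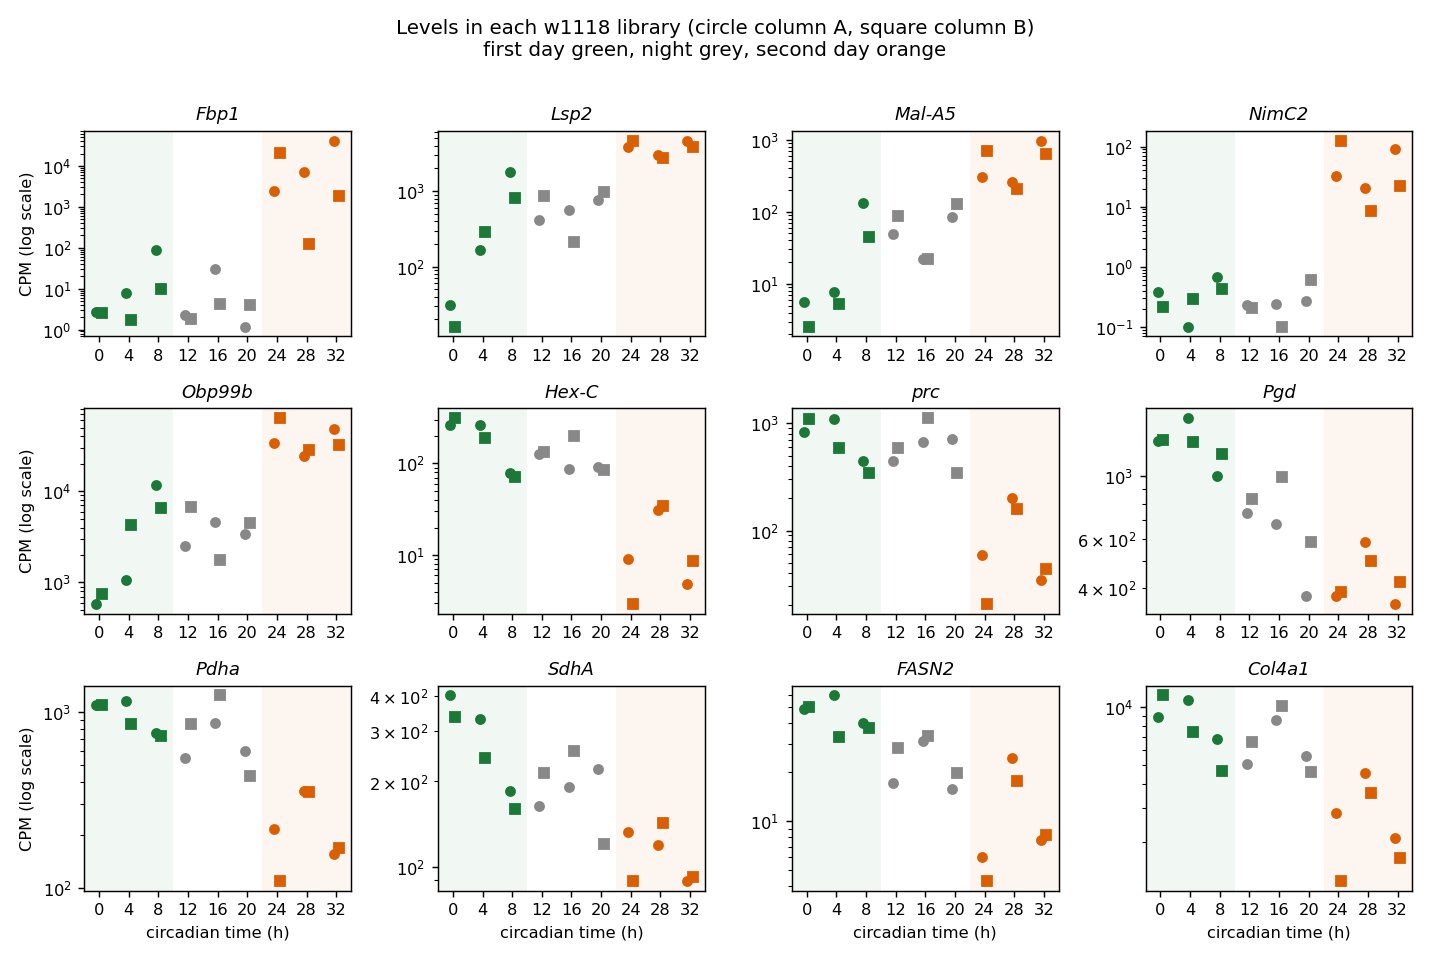
Levels (CPM, log scale) of 12 genes in each of the 18 w1118 libraries against circadian time in hours, with circles for column A and squares for column B, and values under 0.1 drawn at 0.1. NimC2 stays below 1 CPM on the first day and lies at 8.58 CPM or more on the second, whereas SdhA and Pgd fall from the first day to the second with night libraries between or beside them.

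Several genes that were nearly silent on the first day became prominent on the second. NimC2, a Nimrod family gene whose products bind bacteria, measured 0.382 and 0.211 CPM (CT0), 0.0861 and 0.291 (CT4), and 0.689 and 0.421 (CT8) on the first day. The second-day values were 31.7 and 126 CPM (CT24), 20.3 and 8.58 (CT28), and 91.0 and 22.3 (CT32), a change of 7.04 ± 0.67 (adjusted p = 0.00089). The groups were far apart, and the 6 night libraries, at 0 to 0.602 CPM, still lay at the first-day level. NimC2 is also a marker of hemocytes, the blood cells. Of the other 14 hemocyte markers 6 were lower and 0 higher, and their part in the result was not tested. The 12 markers other than NimC2, Col4a1 and Pxn summed to 432 to 1528 CPM (median 824) on the first day and 282 to 812 CPM (median 408) on the second. The tetraspanin genes Tsp42Ep and Tsp42Ek, which encode small membrane proteins and lie in one gene cluster, rose by 9.27 ± 1.42 (adjusted p = 0.00237) and 6.19 ± 0.92 (adjusted p = 0.00215). Tsp42Ep measured 0 to 12.0 CPM (median 0.188) on the first day and 119 to 828.5 (median 250.4) on the second. Of 14 tested genes of this cluster, a family picked after its values were seen, 4 rose without overlap, among them Tsp42Ej (3.11 ± 0.55) and Tsp42El (1.68 ± 0.29), 1 fell and 9 did not pass. The night libraries again resembled the first day for Tsp42Ep, at 0.46 to 4.08 CPM.

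Among the other genes of the 15 largest rises, taken over called genes of at least 10 CPM whose days did not overlap, Obp99b, an odorant-binding protein gene and the fifth most abundant transcript of the table, measured 577 to 11697 CPM (median 2649) on the first day and 24288 to 64032 (median 33042) on the second, a change of 3.84 ± 0.78 (adjusted p = 0.00933). The maltase gene Mal-A5, whose product splits the disaccharide maltose, measured 2.53 to 133 CPM (median 6.62) on the first day and 204 to 972 (median 465) on the second, and rose by 5.14 ± 0.72 (adjusted p = 0.0018). Both were highest on the first day in CT8 A, and in both the days did not overlap. The gene sro (shroud), an enzyme gene of ecdysteroid synthesis that marks the prothoracic gland, measured 0.689 to 19.6 CPM (median 2.56) on the first day and 38.9 to 110.2 (median 68.0) on the second, and rose by 4.35 ± 0.71 (adjusted p = 0.00319). The other 10 ring gland markers, of which 2 passed the low-level filter, summed to 0.548 to 5.61 CPM (median 1.01) on the first day and 0.746 to 4.42 CPM (median 1.52) on the second. The scavenger receptor gene dsb, of the CD36 family, rose by 5.31 ± 0.71 (adjusted p = 0.00148). The remaining genes of the 15 largest rises were lncRNA:CR45138 (4.76 ± 0.63), CG9664 (4.69 ± 0.60), CG7342 (4.55 ± 0.66), CG7255 (4.43 ± 0.82), CG12926 (4.04 ± 0.60) and CG42847 (3.96 ± 1.11, adjusted p = 0.0395). The call of CG42847 was lost without any 1 of CT0 A, CT0 B, CT4 A, CT4 B, CT8 A, CT8 B, CT24 A, CT28 A, CT28 B and CT32 A (adjusted p of 0.0508 to 0.1). CG34166, the tenth most abundant transcript, measured 766 to 4454 CPM (median 1680.0) on the first day and 8562 to 16118 (median 11382) on the second, and rose by 2.85 ± 0.37 (adjusted p = 0.00141), with no overlap.

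The 15 largest falls, chosen in the same way, included enzymes of sugar use, a matrix protein and a carrier protein. The hexokinase gene Hex-C, whose product traps glucose by phosphorylation, measured 261 and 314 CPM (CT0), 263 and 191 (CT4), and 79.1 and 71.9 (CT8) on the first day. On the second it measured 8.98 and 2.91 CPM (CT24), 31.4 and 34.3 (CT28), and 4.80 and 8.56 (CT32). It was lowest on the first day at CT8 and highest on the second at CT28, and the days did not overlap (a fall of 3.87 ± 0.51, adjusted p = 0.00141). Gpo1, the mitochondrial glycerol-3-phosphate dehydrogenase, measured 982 to 2781 CPM (median 1266) on the first day and 14.5 to 409.6 (median 132) on the second, and fell by 3.24 ± 0.72 (adjusted p = 0.0144). Pericardin, prc, a collagen-like matrix protein, measured 347 to 1103 CPM (median 713) on the first day and 20.5 to 201 (median 51.3) on the second, and fell by 3.35 ± 0.43 (adjusted p = 0.00134). CG11899, the phosphoserine aminotransferase of serine synthesis, fell by 3.08 ± 0.44 (adjusted p = 0.0018). Obp83cd, an odorant-binding protein gene, measured 63.0 to 242 CPM (median 169) on the first day and 0.402 to 27.8 (median 2.36) on the second, and fell by 4.99 ± 0.80 (adjusted p = 0.0029), opposite to Obp99b. The glycosyltransferase gene Ugt317A1 fell by 2.67 ± 0.32 (adjusted p = 0.00116). Also among the 15 largest falls were CG14275 (-4.93 ± 0.70), CG10814 (-4.66 ± 0.71), CG9498 (-3.57 ± 0.57), CG7560 (-3.40 ± 0.72), CG9928 (-3.01 ± 0.48), CG17036 (-2.75 ± 0.24), CG13067 (-3.92 ± 0.95), CG14566 (-2.50 ± 0.59) and CG13068 (-7.51 ± 1.91). The last rested on CT0: it measured 109 and 36.1 CPM there and at most 0.439 CPM elsewhere on the first day. On the second it measured at most 0.0995 CPM, under the level of 3 counts, so the fitted change depends on the prior count and is no bound. Its call was lost without CT0 A, CT0 B, CT8 A, CT24 A, CT24 B or CT32 A (adjusted p of 0.0523 to 0.0938), that of CG13067 without CT24 A, CT32 A or CT32 B (0.0558 to 0.0687) and that of CG14566 without CT0 B, CT32 A or CT32 B (0.0559 to 0.0658).

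Genes for the supply of NADPH fell as a group. All 9 tested genes of the pentose phosphate path and the cytosolic NADPH enzymes were called lower, 6 of them without overlap, with a list median of -1.29. Their summed level was 9937 to 18317 CPM (median 14427) on the first day and 4316 to 6384 CPM (median 4944) on the second. Zw, the glucose-6-phosphate dehydrogenase at the entry of the path, measured 104 to 343 CPM (median 228) on the first day and 29.04 to 62.7 (median 38.2) on the second, and fell by 2.28 ± 0.16 (adjusted p = 0.000537). Pgd, the next dehydrogenase, measured 1006 to 1615 CPM (median 1329) on the first day and 351 to 584 (median 404) on the second, and fell by 1.54 ± 0.10 (adjusted p = 0.000537). In both genes all second-day libraries lay below all first-day ones. The transaldolase Taldo fell by 1.57 ± 0.14, the transketolase CG8036 by 1.49 ± 0.16, the malic enzyme Men by 1.29 ± 0.21 and the isocitrate dehydrogenase Idh by 1.28 ± 0.17, each with an adjusted p of at most 0.00337.

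Glycolysis fell in most of its steps. Of 18 genes tested, 11 were lower and 0 higher (median -0.80), 10 of the 11 without overlap. The count was 4 without CT0 and CT24, 11 without CT4 and CT28 and 7 without CT8 and CT32. Pyk, the pyruvate kinase of the last step, measured 1578 to 2384 CPM (median 1987) on the first day and 234 to 741 (median 332) on the second, and fell by 2.36 ± 0.20 (adjusted p = 0.000777). Gapdh2 fell by 1.19 ± 0.19, Pglym78 by 1.21 ± 0.18, Eno by 0.95 ± 0.15, Pgk by 0.87 ± 0.13 and Pgi by 0.79 ± 0.11. Gpdh1, which feeds glycerol-3-phosphate to lipid synthesis, fell by 1.59 ± 0.28 (adjusted p = 0.0042). Aldolase Ald1 (-0.31 ± 0.11, adjusted p = 0.0987), Gapdh1 (-0.33 ± 0.11, adjusted p = 0.0758) and the gluconeogenic carboxykinase Pepck2 (0.62 ± 0.47, adjusted p = 0.368) did not pass. The enzymes that build glycogen were lower: the starter protein Gyg by 1.76 ± 0.23 (adjusted p = 0.00146), the synthase Glys by 1.31 ± 0.22 and the branching enzyme AGBE by 1.03 ± 0.16. Glyp, the phosphorylase that breaks glycogen down, was lower too, by 1.12 ± 0.14 (adjusted p = 0.00128). In the glycogen and trehalose list 5 of 12 genes were lower and 2 higher, the higher ones being 0 without CT0 A, CT0 B, CT4 B, CT24 B or CT32 A and 1 without any other library but CT32 B. Maltases had 3 of 8 higher and 0 lower, and the count was 1 without CT0 A, CT0 B, CT8 A, CT28 B or CT32 A.

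The steps from cytosolic citrate to fatty acids were lower on the second day. Of 17 genes tested 8 were lower and 0 higher, with a median of -0.94 and summed levels of 16441 to 25505 CPM (median 21048) and 5711 to 11436 CPM (median 9171). Acly, which makes cytosolic acetyl-CoA from citrate, measured 1920.3 to 4605 CPM (median 3523) on the first day and 376 to 1598 (median 747) on the second, and fell by 1.98 ± 0.17 (adjusted p = 0.000777). ACC, the acetyl-CoA carboxylase that commits it to fatty acids, measured 2036 to 3656 CPM (median 3009.5) on the first day and 373 to 1358 (median 669) on the second, and fell by 1.96 ± 0.26 (adjusted p = 0.00149). Neither gene overlapped between the days. The fatty acid synthases FASN1 and FASN2 fell by 1.09 ± 0.21 and 2.17 ± 0.33. FASN2 is also a marker of oenocytes, another larval cell type. Of 7 oenocyte markers tested, FASN2 included, 3 were lower and 0 higher (median -0.07), and their part in the result was not tested. The acetyl-CoA synthetase AcCoAS fell by 1.08 ± 0.20, the elongase Baldspot by 1.70 ± 0.31 and the desaturase Desat1 by 0.94 ± 0.20. Uncalled changes in the synthesis list reached 2.36. SREBP, the transcription factor that drives lipid synthesis genes, measured 158 to 346 CPM (median 268) on the first day and 100.2 to 175 (median 150.3) on the second, and fell by 0.76 ± 0.08 (adjusted p = 0.00089), CT8 B lying inside the second-day range. In triglyceride synthesis and the lipid droplet 7 of 16 genes were lower and 0 higher, among them the acyltransferases Agpat2 (-2.06 ± 0.26, adjusted p = 0.0012), Agpat4 (-3.35 ± 0.54) and mino (-0.82 ± 0.13) and the droplet protein Jabba (-0.68 ± 0.11). That count was 4 without CT28 A and 2 without CT0 and CT24. Of 11 lipase genes tested 2 were called higher, and 1 of the 11 was higher on the second day without overlap. The triglyceride lipase bmm (brummer) measured 9.87 to 59.9 CPM (median 17.6) on the first day and 27.4 to 104 (median 59.2) on the second, and rose by 1.53 ± 0.30 (adjusted p = 0.00754), and Lip4 by 1.49 ± 0.16 (adjusted p = 0.00089).

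**Figure D2:**
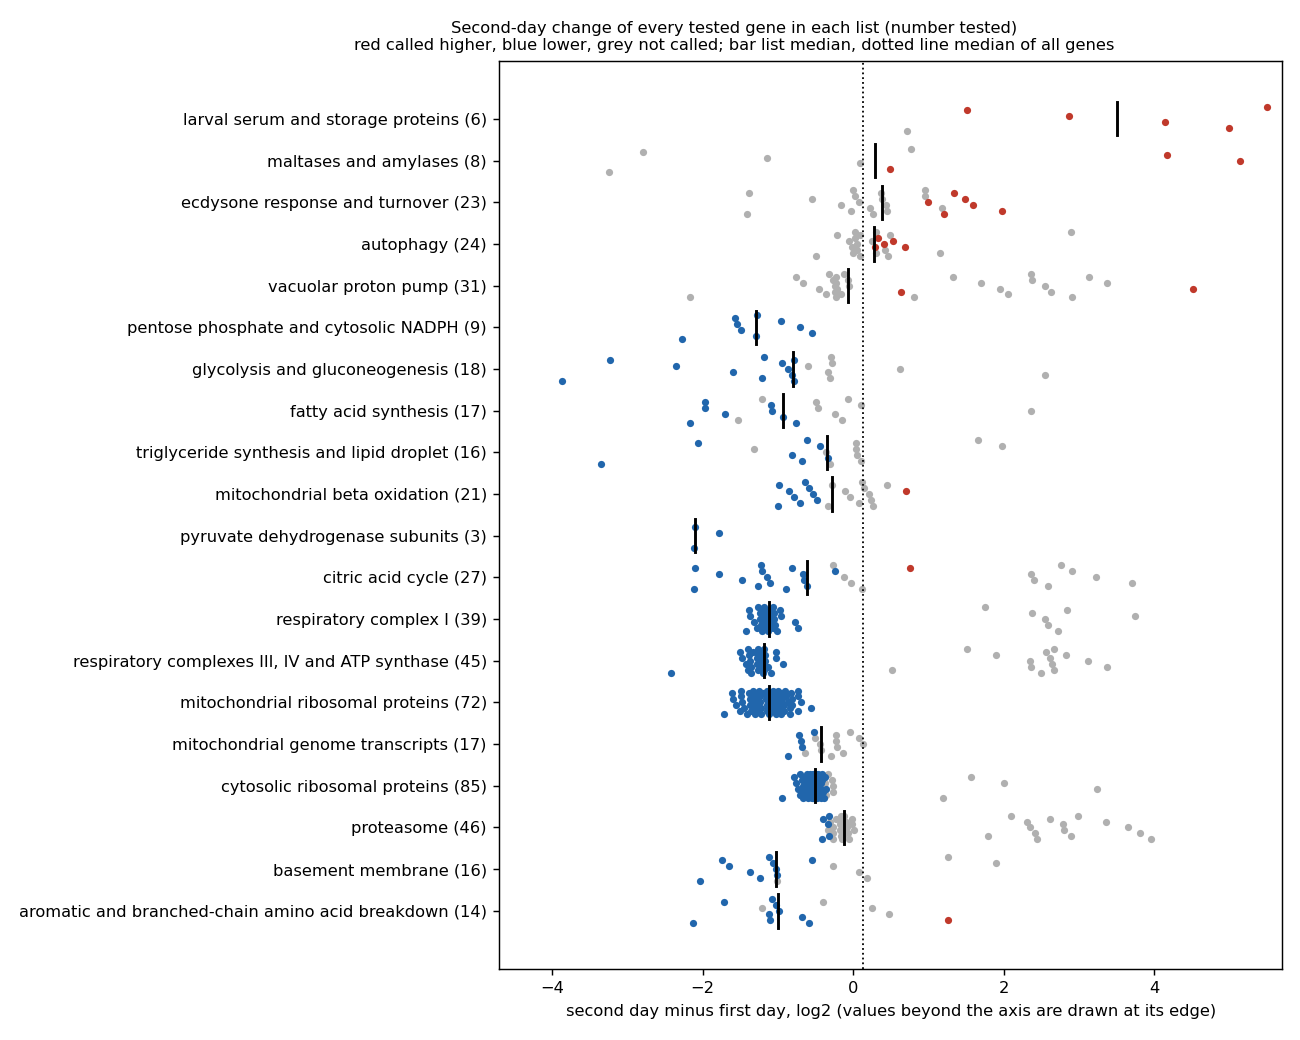
Second-day minus first-day change (log2) of every tested gene in 20 lists, with the number tested in brackets. Red points were called higher, blue lower and grey not called. Black bars are list medians and the dotted line the median of all genes, 0.13, and values beyond the axis are drawn at its edge. In the mitochondrial lists a tight blue group near -1.1 stands apart from grey points of scarce genes near 2.5.

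Fatty acid breakdown and lipid transport moved less evenly. For comparison, 4.57% of all genes tested were called higher and 10.5% lower. In mitochondrial beta oxidation 9 of 21 genes were lower and 1 higher. The carnitine carrier colt fell by 0.79 ± 0.14 (adjusted p = 0.00437), the hydratase Echs1 by 0.86 ± 0.17 (adjusted p = 0.00897) and CG4860 likewise (-1.001 ± 0.16, adjusted p = 0.00329). Without CT0 A or CT0 B 5 were lower and 0 higher, and 2 were higher without CT8 A or CT28 A. In the peroxisome list 3 of 25 genes rose, Acox3 (0.81 ± 0.15), ScpX (0.76 ± 0.15) and CG9577 (0.91 ± 0.14), the first being the acyl-CoA oxidase of peroxisomal breakdown, and 4 fell, among them the import factor Pex19 (-0.86 ± 0.08, adjusted p = 0.00089). The count of lower genes there was 1 without CT0 A, CT0 B or CT4 A and 2 without CT8 A or CT32 A, and 5 were higher without CT4 B. Lipid carriers split, with 4 of 18 higher, among them the fatty acid binding protein fabp (0.89 ± 0.14, adjusted p = 0.00265) and the lipocalin NLaz (1.72 ± 0.29, adjusted p = 0.00349), and 3 lower, among them the lipophorin receptor LpR1 (-1.79 ± 0.28, adjusted p = 0.00251). That higher count was 2 without CT0 A, CT0 B, CT4 A, CT8 B, CT24 A, CT24 B, CT28 B or CT32 A, and 1 was lower without CT0 A or CT0 B.

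Most mitochondrial genes encoded in the nucleus were lower on the second day, by similar amounts. All 72 tested mitochondrial ribosomal protein genes were called lower, with changes from -1.71 for mRpL23 to -0.56 for mRpS5 and a median of -1.12, and 25 of them did not overlap. In respiratory complex I, which oxidises NADH, 32 of 39 genes were lower (median -1.12), and in complexes III and IV and the ATP synthase 31 of 45 (median -1.18). These 32 of 39 and 31 of 45 tested genes were lower in all 6 second-day libraries than in all 6 first-day ones. Over all genes tested 4.43% were, and among all genes called lower 469 of 1194. Summed levels of the complex I list were 5519 to 8235 CPM (median 7105) on the first day and 2259.8 to 4535 CPM (median 2842) on the second. In bulk RNA such a difference cannot tell fewer cells of a type from less RNA per cell. Cytochrome c, Cyt-c-p, measured 677 to 1588 CPM (median 1234) on the first day and 95.2 to 416 (median 180.0) on the second, and fell by 2.42 ± 0.28 (adjusted p = 0.00115). The catalytic ATP synthase subunit ATPsynbeta measured 3669 to 4735 CPM (median 4408) on the first day and 996 to 2398 (median 1590.2) on the second, and fell by 1.38 ± 0.20 (adjusted p = 0.00214), and complex I subunit ND-B14.7 by 1.22 ± 0.12 (adjusted p = 0.00089), with levels of 125 to 198 CPM (median 167) on the first day and 49.1 to 96.0 (median 62.0) on the second.

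The 7 complex I genes that were not called were scarce, at mean levels of 0.98 to 6.04 CPM, and had changes of 1.75 to 3.74. They were ND-B8 and 6 genes named as second copies, such as ND-24L and ND-51L1. The 14 uncalled genes of the other complexes, all named as copies (COX4L, ATPsynbetaL and the like), likewise had positive changes, of 0.52 to 3.37, at 0.237 to 13.8 CPM. Many such copies are known from the testis, and the summed testis markers given above also varied widely between libraries. Their part in these values was not tested. With gonad markers as a covariate 32, 31 and 70 genes of the complex I, other complex and ribosomal protein lists were called lower. Without CT0 and CT24 the counts were 30, 26 and 67, without CT4 and CT28 32, 31 and 71, and without CT8 and CT32 29, 24 and 63.

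The citric acid cycle and its entry followed, with 15 of 27 genes lower and 1 higher. Among the called genes the pyruvate dehydrogenase subunits, which turn pyruvate into acetyl-CoA, had the largest changes: muc by -2.12 ± 0.17 (adjusted p = 0.000777), Pdha by -2.10 ± 0.22 (adjusted p = 0.00089) and Pdhb by -1.79 ± 0.15 (adjusted p = 0.000777). Pdha measured 1089.8 and 1092 CPM (CT0), 1148 and 856 (CT4), and 757 and 731 (CT8) on the first day. The second-day values were 215 and 109 CPM (CT24), 354 and 349.7 (CT28), and 155 and 169 (CT32). The second-day values were highest at CT28, yet all lay below all first-day ones. The 1 gene that rose was Pdk, the kinase that switches this enzyme off, by 0.75 ± 0.12 (adjusted p = 0.00316), with levels of 104 to 194 CPM (median 118) on the first day and 156 to 298 (median 206) on the second. Of the uncalled genes 7 were scarce, at 1.42 to 7.12 CPM, with changes of 2.37 to 3.70. The aconitase mAcon1 fell by 1.47 ± 0.20 (adjusted p = 0.00146), and the 4 subunits of succinate dehydrogenase fell nearly alike, SdhA by 1.21 ± 0.16, SdhB by 1.22 ± 0.19, SdhC by 1.15 ± 0.13 and SdhD by 1.26 ± 0.15, all without overlap. Transcripts of the mitochondrial genome itself moved less: 5 of 17 tested were lower (median -0.42), led by mt:ND6 (-0.87 ± 0.18, adjusted p = 0.0109). The count of 5 was 0 without CT0 A or CT0 B, 2 without CT32 A, and 3 without CT4 A, CT8 A, CT8 B or CT32 B. The reads do not show the strand, so antisense transcripts of the mitochondrial genome cannot be told apart.

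Several genes for other mitochondrial proteins made in the cytosol were lower as well, in families picked after their values were seen. The mitochondrial chaperones Hsp60A and Hsc70-5 fell by 1.499 ± 0.25 (adjusted p = 0.00353) and 1.25 ± 0.17 (adjusted p = 0.00149). Of 4 Tom genes of the outer membrane import pore tested, 3 were lower, led by Tom40 (-1.33 ± 0.23, adjusted p = 0.00402). Of 9 Tim genes of the inner membrane 4 were lower, among them Tim9a (-0.99 ± 0.11, adjusted p = 0.00109), and 5 did not pass. The median of the 9 was nevertheless 2.26, with changes of up to 4.38. All 7 tested coenzyme Q synthesis genes were lower (median -0.66), Coq8 most at -0.87 ± 0.22, although its call was lost without CT0 A, CT0 B, CT4 A or CT24 A (adjusted p of 0.0501 to 0.0792). Of 15 aminoacyl-tRNA synthetases with mitochondrial names 9 were lower (median -0.81), such as AlaRS-m (-0.90 ± 0.11, adjusted p = 0.0012) and SerRS-m (-0.91 ± 0.13, adjusted p = 0.00183). Of the 17 others 1, MetRS (-0.41 ± 0.09, adjusted p = 0.0108), was lower (median -0.45), and the difference between these subsets was not tested. Over all 32 synthetases 10 were lower, and 6 without CT0 A, CT0 B, CT4 A or CT24 A, while 27 were lower with total counts only (median -0.65). The mitochondrial antioxidant enzymes Sod2 and Prx3 fell by 1.10 ± 0.13 (adjusted p = 0.00106) and 1.17 ± 0.17 (adjusted p = 0.0022), while catalase, Cat, a peroxisomal enzyme, rose by 1.01 ± 0.22 (adjusted p = 0.0127). The call of Cat was lost without CT0 A or CT0 B (adjusted p of 0.06 to 0.0637).

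Cytosolic translation genes moved less. Of 85 tested ribosomal protein genes 73 were lower and 0 higher, but with a median of -0.51, and 9 of the 85 did not overlap. Together they took 4.58 to 5.88% of all counts on the first day (median 5.46) and 2.51 to 4.20% (median 3.29) on the second. RpLP2, a stalk protein of the large subunit, measured 955 to 1333 CPM (median 1078) on the first day and 500.0 to 832 (median 597) on the second, and fell by 0.79 ± 0.13 (adjusted p = 0.00355), with no overlap. The count was fragile: 14 without CT0 A, 22 without CT0 B, 46 without CT8 A, 35 without CT32 A, 45 without CT32 B, 13 with gonad markers as a covariate, 0 without CT0 and CT24 and 2 without CT8 and CT32. Of 44 initiation factors 10 were lower (median -0.26), and of 29 ribosome biogenesis genes 3 (median -0.65), where 10.5% of all genes were lower. With total counts only the counts were 23 and 10, and with median-ratio size factors 5 and 3. Both counts moved with single libraries, that of the factors to 0 without CT0 A or CT0 B, 2 without CT4 A or CT8 A, 3 without CT24 A or CT32 A, 5 without CT28 B and 6 without CT32 B. The biogenesis count was 0 without CT24 A and 1 without CT0 A, CT0 B, CT8 B or CT32 A. The 6 tested small nucleolar RNA host genes were all lower (median -1.10), and 6 of 8 subunits of the chaperonin CCT, which folds actin and tubulin, were lower (median -0.48), families again picked after their values were seen. Of 46 proteasome genes 5 were lower and 0 higher, with a median of -0.13, and the 5 became 0 without CT0 A or CT0 B and 2 without CT32 A or CT32 B. With scaling by total counts only, 27 were lower (median -0.32). Among the uncalled proteasome genes 15 were scarce, at 0.836 to 10.9 CPM, with changes of 1.79 to 3.95, and the other 26 lay between -0.33 and 0.01.

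Most genes of the secreted matrix list fell. In the basement membrane, the protein sheet on which tissues rest, 10 of 16 genes were lower and 0 higher (median -1.02), and their summed level was 11828 to 26579.9 CPM (median 19724) on the first day and 5598 to 12872 CPM (median 8335) on the second. The collagen IV chains Col4a1 and vkg fell by 1.65 ± 0.26 (adjusted p = 0.00278) and 1.75 ± 0.27 (adjusted p = 0.00238), and SPARC, a collagen-binding protein that larval fat body and hemocytes make, by 1.37 ± 0.17 (adjusted p = 0.0012). Col4a1 measured 8857 and 11542 CPM (CT0), 10869 and 7478 (CT4), and 6816 and 4701 (CT8) on the first day. On the second it measured 2843 and 1258 CPM (CT24), 4589 and 3594 (CT28), and 2103 and 1662 (CT32). Its first-day values were all above its second-day ones, with CT8 B and CT28 A nearest to each other. The list count was 3, 8 and 4 without phase 0, 4 or 8. The laminin LanB2 fell by 1.24 ± 0.22 (adjusted p = 0.00491). Of 15 hemocyte markers tested 6 were lower and NimC2 was higher, but Col4a1 is on both this list and that of the basement membrane. The 12 markers other than NimC2, Col4a1 and Pxn summed to 432 to 1528 CPM (median 824) and 282 to 812 CPM (median 408). The part of hemocytes in the result was not tested. The falls of the hemocyte genes Hml (-1.06 ± 0.28, adjusted p = 0.0318) and PPO1 (-1.19 ± 0.31, adjusted p = 0.0302) did not hold in every leave-out. The call of Hml was lost without CT0 A, CT0 B, CT4 B, CT8 A, CT24 A, CT24 B, CT28 B, CT32 A or CT32 B (adjusted p of 0.0562 to 0.0933) and that of PPO1 without CT0 A, CT0 B, CT4 B, CT8 A, CT24 B, CT28 B, CT32 A or CT32 B (0.0541 to 0.102). The hemocyte count was 1 without CT0 A, CT0 B, CT8 A or CT28 B, 2 without CT4 B, CT24 B, CT32 A or CT32 B and 3 without CT24 A. Nplp2, a precursor of neuropeptide-like proteins and one of the most abundant transcripts, measured 18126 to 26330.4 CPM (median 22192) on the first day and 1766 to 13079 (median 6257) on the second, and fell by 1.82 ± 0.41 (adjusted p = 0.0156), with no overlap.

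Some ecdysone response genes rose. Of 23 tested, 6 were higher and 0 lower (median 0.38), beside 4.57% and 10.5% of all genes. The ecdysone receptor EcR measured 12.4 to 23.2 CPM (median 12.7) on the first day and 21.98 to 45.1 (median 33.95) on the second, and rose by 1.21 ± 0.19 (adjusted p = 0.00247), and its early target Eip74EF, a transcription factor, by 1.58 ± 0.28 (adjusted p = 0.00519), with levels of 11.2 to 39.0 CPM (median 17.8) on the first day and 40.1 to 73.7 (median 54.0) on the second. Eip74EF did not overlap between the days, while EcR overlapped by CT8 A and CT28 B. The transcription factor br (broad) rose by 1.34 ± 0.27 (adjusted p = 0.00956), the importer Oatp74D, through which ecdysone enters cells, by 0.99 ± 0.16 (adjusted p = 0.0032), and shd (shade), which activates ecdysone, by 1.48 ± 0.30 (adjusted p = 0.00897). MsrA rose by 1.97 ± 0.46 (adjusted p = 0.018), but not without CT0 A or CT0 B (adjusted p of 0.0524 to 0.0537). Without CT0 and CT24 the count of 6 was 0. In juvenile hormone turnover and response 1 of 9 rose, the epoxide hydrolase Jheh3 (1.41 ± 0.20, adjusted p = 0.00182), and 1 fell, JhI-21 (-0.98 ± 0.20, adjusted p = 0.00913).

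Glue genes of the salivary gland were called higher in 6 of 12 tested, from few libraries, and others of the list had changes below 0. Sgs3, a glue protein, measured 128 CPM in CT24 A and 349 in CT32 B, and at most 0.584 in the other 10. The uncalled salivary gland genes ng1 (-2.71 ± 2.24, adjusted p = 0.402), ng2 (-2.38 ± 1.89, adjusted p = 0.387) and ng3 (-1.81 ± 2.11, adjusted p = 0.546) had negative changes. All 22 genes of the list summed to 2377, 976, 616, 564, 0.313 and 446 CPM over CT0 A to CT8 B, and to 1565, 2.71, 115, 0.76, 683 and 2972 CPM over CT24 A to CT32 B. These sums overlapped widely, and the list median of 8.27 became -3.06, with 0 called, without CT8 and CT32, and such medians of fitted values near 0 counts depend on the prior count. Eig71Ee, an ecdysone-induced gene of the same gland, measured 317 CPM in CT24 A, 13.9 in CT32 A, 610.3 in CT32 B and at most 0.553 in the others. The 9 salivary markers other than SPH93 summed to 39.7 to 81.8 CPM (median 56.4) on the first day and 33.5 to 1755 CPM (median 82.0) on the second, and their part in the result was not tested. The count was 2 without CT0 A, CT0 B, CT8 A, CT8 B or CT32 B and 3 without CT24 A, and limma-voom lost the calls of Sgs3, Sgs5, Sgs8 and Eig71Ee.

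A few autophagy genes rose slightly, where 4.57% of all genes tested were called higher. Of 24 tested 5 were higher and 0 lower (median 0.27), Atg8a, the ubiquitin-like protein of the autophagosome, most clearly (0.69 ± 0.12, adjusted p = 0.00522), with levels of 91.4 to 235 CPM (median 114) on the first day and 124 to 398 (median 185) on the second. The list count was 1 without CT0 A or CT0 B and 3 without CT28 A or CT32 A, the calls of Atg3 (0.33 ± 0.07) and Atg13 (0.53 ± 0.12) being lost without CT0 A or CT0 B (adjusted p of 0.109 to 0.121 and 0.107 to 0.125). It was 1 with total counts only (median 0.08), 0, 2 and 1 without phase 0, 4 or 8, and 2 with the gonad covariate. In the cell death list the effector caspase gene Decay measured 2.54 to 15.4 CPM (median 7.51) on the first day and 25.7 to 96.4 (median 35.1) on the second, and rose by 2.76 ± 0.31 (adjusted p = 0.00104), and the death inducer hid measured 7.90 to 18.9 CPM (median 16.6) on the first day and 1.23 to 4.42 (median 1.96) on the second, and fell by 2.71 ± 0.27 (adjusted p = 0.00089). Neither overlapped between the days, and they moved in opposite directions. The list of 17 had 1 gene higher and 2 lower, and 2 higher without CT4 B or CT28 A. The endocycle list held 1 called gene of 28 (2 higher and 1 lower without CT24 B), fzr, an activator of the mitotic cyclin ligase (0.65 ± 0.15, adjusted p = 0.0165). The sorting nexins of the endosome, picked after their values were seen, had 3 of 7 higher, led by Snx27 (1.22 ± 0.23, adjusted p = 0.00698).

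Amino acid and purine genes moved in both directions, where 4.57% of all genes tested were called higher and 10.5% lower. In the breakdown of aromatic and branched-chain amino acids 9 of 14 were lower and 1 higher (median -1.01). The transaminase Bcat fell by 1.11 ± 0.23 (adjusted p = 0.00994), Dbct by 1.71 ± 0.36 (adjusted p = 0.0113) and CG15093 by 2.13 ± 0.46 (adjusted p = 0.013), whereas Hn, phenylalanine hydroxylase, measured 197 to 415 CPM (median 235) on the first day and 402 to 871 (median 581) on the second, and rose by 1.25 ± 0.18 (adjusted p = 0.00178). Without CT8 and CT32 the count of 9 was 0. Oat, ornithine aminotransferase, rose by 2.20 ± 0.46 (adjusted p = 0.0115), with CT32 B at 121 CPM inside the first-day range and the other second-day libraries at 626 to 1796 CPM. Asparagine synthetase, AsnS, rose by 0.92 ± 0.16 (adjusted p = 0.00437). The transsulfuration enzyme Cbs fell by 1.40 ± 0.18 (adjusted p = 0.00136) and Ahcy, which clears S-adenosylhomocysteine, by 0.93 ± 0.15 (adjusted p = 0.00319). The purine list had 3 of 20 higher and 3 lower, with 1 lower without CT0 A, CT0 B, CT24 A or CT32 A and 5 without CT24 B. Its 2 genes for the first step of synthesis moved apart. Prat2 measured 6.32 to 27.7 CPM (median 11.1) on the first day and 35.1 to 102 (median 62.6) on the second, and rose by 2.44 ± 0.51 (adjusted p = 0.0105), and Prat measured 17.4 to 36.8 CPM (median 26.3) on the first day and 6.13 to 17.9 (median 9.61) on the second, and fell by 1.20 ± 0.23 (adjusted p = 0.0066). Paics, a later step, measured 178 to 292 CPM (median 235) on the first day and 465.7 to 1272 (median 681) on the second, and rose by 1.77 ± 0.28 (adjusted p = 0.00258), with no overlap.

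Defence and detoxification genes moved one by one. Over all genes tested, 4.57% were called higher and 10.5% lower. The lower calls of the Toll and Imd, cytochrome P450 and glutathione S-transferase lists lay near or below that share. TotA, a Turandot stress protein of the hemolymph, measured 21.04 to 194 CPM (median 51.8) on the first day and 393 to 795 (median 602) on the second, and rose by 3.40 ± 0.50 (adjusted p = 0.00215), and Tsf1, the iron-binding transferrin, by 2.19 ± 0.21 (adjusted p = 0.00089), with levels of 289.5 to 781 CPM (median 363) on the first day and 1644 to 2258 (median 1722) on the second. Neither overlapped. The Toll and Imd list had 6 of 36 higher and 4 lower, among them the complement-like Tep1 (1.70 ± 0.36, adjusted p = 0.0124) and the Toll ligand spz (-0.81 ± 0.16, adjusted p = 0.00885), and the counts were 2 and 1 without CT0 A or CT0 B, 4 and 1 without CT32 A, and 1 lower without any other library but CT4 B or CT28 B. Of 17 antimicrobial peptide genes 2 were higher, the Bomanins BomS3 (2.03 ± 0.44) and BomT2 (2.03 ± 0.38), both at median levels under 2 CPM, and 1 without CT0 A or CT0 B. Cytochrome P450 genes had 11 of 71 higher and 4 lower, such as Cyp28a5 (1.40 ± 0.19, adjusted p = 0.00148) and Cyp4d8 (3.67 ± 0.67, adjusted p = 0.00544), the counts being 7 and 2 without CT0 A or CT0 B, and 2 lower without CT8 A or CT32 A. Glutathione S-transferases split 4 and 4 of 32, with GstE9 (-1.82 ± 0.19, adjusted p = 0.00089) and GstD7 (-2.64 ± 0.48, adjusted p = 0.00537) lower, and the higher 4 were 0 without CT0 A, CT0 B or CT32 A, 1 without CT8 B and 2 without CT4 A, CT24 A, CT24 B or CT28 B. Sugar-conjugating enzymes were lower in 6 of 26 and higher in 1, led by Ugt49B1 (-2.05 ± 0.26, adjusted p = 0.00134), with 3 lower without CT0 A or CT0 B and 2 higher without CT8 A or CT28 A. Close copies within these families can share reads, and how the authors' counting split them is not given in the sources used here.

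Some clock and nutrient genes were called in each direction. Of 18 core clock genes 3 were higher and 2 lower, beside 4.57% and 10.5% of all genes, and the counts were 2 and 1 without any 1 library other than CT4 B, CT28 A and CT28 B, the last of which gave 3 and 1. The repressor vri measured 2.61 to 14.9 CPM (median 3.73) on the first day and 8.31 to 42.8 (median 23.3) on the second, and rose by 2.15 ± 0.27 (adjusted p = 0.0012), while Pdp1, which opposes vri at the same sites in clock neurons, measured 31.3 to 71.1 CPM (median 44.5) on the first day and 7.69 to 22.1 (median 13.4) on the second, and fell by 1.66 ± 0.26 (adjusted p = 0.00258) with no overlap. The timeless gene tim rose by 2.21 ± 0.51 (adjusted p = 0.0178) at low levels, 0.0831 to 0.802 CPM (median 0.512) on the first day and 1.16 to 4.41 (median 2.06) on the second, and cyc by 1.19 ± 0.35 (adjusted p = 0.0462), a call lost without CT0 A, CT0 B, CT4 A, CT8 A, CT8 B, CT24 A, CT24 B, CT32 A or CT32 B (adjusted p of 0.0833 to 0.157). The other called gene, CkIIbeta, changed by -0.36 ± 0.10 (adjusted p = 0.0448), and its call was lost without CT0 A, CT0 B, CT4 A, CT8 A, CT8 B, CT24 A, CT24 B, CT28 B, CT32 A or CT32 B (0.0502 to 0.179). The period gene itself did not pass (0.70 ± 0.59, adjusted p = 0.409), nor did w (2.24 ± 1.20, adjusted p = 0.244). In the insulin, TOR and nutrient list 1 of 26 was lower (0 without CT4 A, CT8 A, CT24 A, CT24 B or CT32 A) and 3 rose (5, with 2 lower, without CT32 B), the hormone limostatin Lst (1.28 ± 0.27, adjusted p = 0.0112), the fat body insulin-like peptide Ilp6 (1.04 ± 0.23, adjusted p = 0.0132) and the transcription factor foxo (0.57 ± 0.14, adjusted p = 0.0199), the last not without CT0 A or CT0 B (adjusted p of 0.0788 to 0.0824). Thor, the translation repressor, did not pass (1.02 ± 0.32, adjusted p = 0.0644).

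List counts not yet given this way also moved when a phase was left out, which leaves 8 libraries, or when gonad markers were a covariate. Over all genes 557, 1161 and 699 were called without phases 0, 4 and 8 and 882 with the covariate. In that order, counts of lower genes were 5, 7, 5 and 7 in place of 8 for fatty acid synthesis, 1, 7, 2 and 3 in place of 9 for beta oxidation and 2, 5, 3 and 4 in place of 5 for glycogen and trehalose. They were 11, 11, 9 and 10 in place of 15 for the citric acid cycle, 2, 1, 0 and 0 in place of 5 for mitochondrial genome transcripts and 3, 5, 5 and 4 in place of 10 for tRNA synthetases. They were 0, 1, 0 and 0 in place of 10 for initiation factors, 0, 2, 0 and 1 in place of 5 for the proteasome, 1, 1, 2 and 1 in place of 6 for hemocyte markers and 3, 5, 2 and 3 in place of 6 for sugar-conjugating enzymes. For muscle markers they were 0, 7, 0 and 0 in place of 0. Counts of higher genes were 1, 1, 4 and 4 in place of 5 for storage proteins, 1, 2, 1 and 1 in place of 3 for maltases, 1, 2, 2 and 2 in place of 4 for lipid carriers and 4, 7, 8 and 6 in place of 11 for cytochrome P450 genes. They were 1, 2, 2 and 3 in place of 6 for the Toll and Imd list, 0, 4, 2 and 0 in place of 4 for glutathione S-transferases, 1, 3, 1 and 2 in place of 3 for the core clock and 1, 2, 0 and 1 in place of 3 for the nutrient list. For fat body markers they were 1, 1, 5 and 4 in place of 6. Under total counts only, the lower count rose to 9 for mitochondrial genome transcripts, 10 for the Toll and Imd list (1 with median-ratio size factors), 7 for cytochrome P450 genes and 5 for the purine list, and the 4 higher glutathione S-transferases became 2.

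Fewer genes were called at phases 4 and 8 than at phase 0 when each was taken alone. CT24 against CT0 called 482 genes higher and 1245 lower (4.23% and 10.9%, or 15.2% in all), CT32 against CT8 57 and 400 (0.5% and 3.51%, 4.01% in all) and CT28 against CT4 17 and 26 (0.149% and 0.228%, 0.377% in all), each with 2 libraries against 2. Over complex I the median change was -1.36, -0.69 and -1.18 at phases 0, 4 and 8, over mitochondrial ribosomal proteins -1.56, -0.78 and -1.02, and over fatty acid synthesis -1.52, -0.81 and -0.44. All 3 medians were below 0 at every phase, and the difference between phases was not tested for lists. The test that the change differs between phases called 0 genes with edgeR (1152 genes, or 10.1%, had an unadjusted p under 0.05), 470 with DESeq2 and 1 with a filter of 10 CPM. The smallest adjusted p was 0.0826, for Cyp4e3, a cytochrome P450 gene with 120.4 and 85.5 CPM at CT32 and 2.98 to 11.7 CPM in the other 10 libraries. Next by unadjusted p, none passing, came CG11350, Lsp2, Alp4 and Vajk2. These counts moved with single libraries. At phase 0, leaving out CT0 A, CT0 B, CT4 A or CT24 B gave 343, 111, 1127 or 817. That at phase 4 was 0 or 1 without any 1 library of CT0, CT4, CT28 or CT32, 26 without CT8 A or CT8 B, 82 without CT24 A and 104 without CT24 B. That at phase 8 was 0 or 1 without any 1 library of CT0, CT8 or CT32 or CT4 A, 289 without CT4 B, 258 without CT28 A, 261 without CT28 B and 700 without CT24 B.

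**Figure D3:**
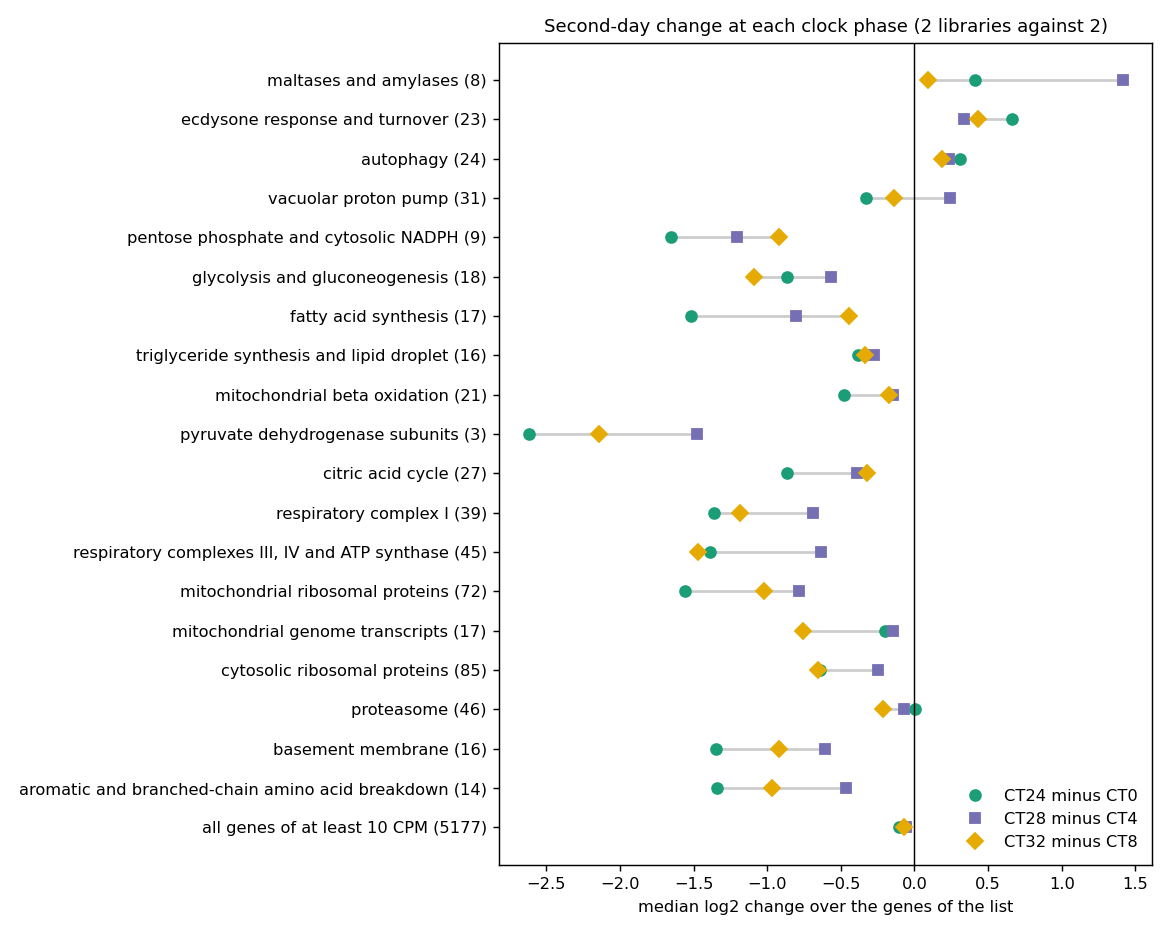
Median change (log2) over the genes of each list at the 3 clock phases, CT24 minus CT0 (circles), CT28 minus CT4 (squares) and CT32 minus CT8 (diamonds), each from 2 libraries against 2. Complex I and mitochondrial ribosomal proteins lie left of 0 at every phase, and the median of all genes of at least 10 CPM lies between -0.11 and -0.06.

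The night libraries, which the comparison did not use, lay mostly between the days. Each library was placed for each gene on a scale where the first-day mean is 0 and the second-day mean 1, in log2(CPM + 0.5). Over the 411 genes called higher at 10 CPM or more the median position was 0.34 and 0.63 at CT12, 0.43 and 0.41 at CT16 and 0.45 and 0.73 at CT20. Over the 1058 genes called lower it was 0.70 and 0.23, 0.15 and -0.10, and 0.66 and 0.76 at the same times, so that the CT16 libraries were nearest the first day. The mean of the night lay between the means of the days for 71.0% of the genes called higher and 81.6% of those called lower. These genes were chosen for their gap between the days, and no share was computed over other genes. The shares therefore do not show a steady course through the night. Within the days, where the scale was set, CT8 A stood at 0.65 for genes called higher, beside 0.14 for CT8 B, and both CT28 libraries stood below 1, at 0.75 and 0.64. The night position of the genes called lower differed between lists, with a median of 0.29 for the pyruvate dehydrogenase subunits, 0.38 for complex I, 0.59 for mitochondrial ribosomal proteins and 0.56 for the NADPH enzymes, a difference that was not tested.

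**Figure D4:**
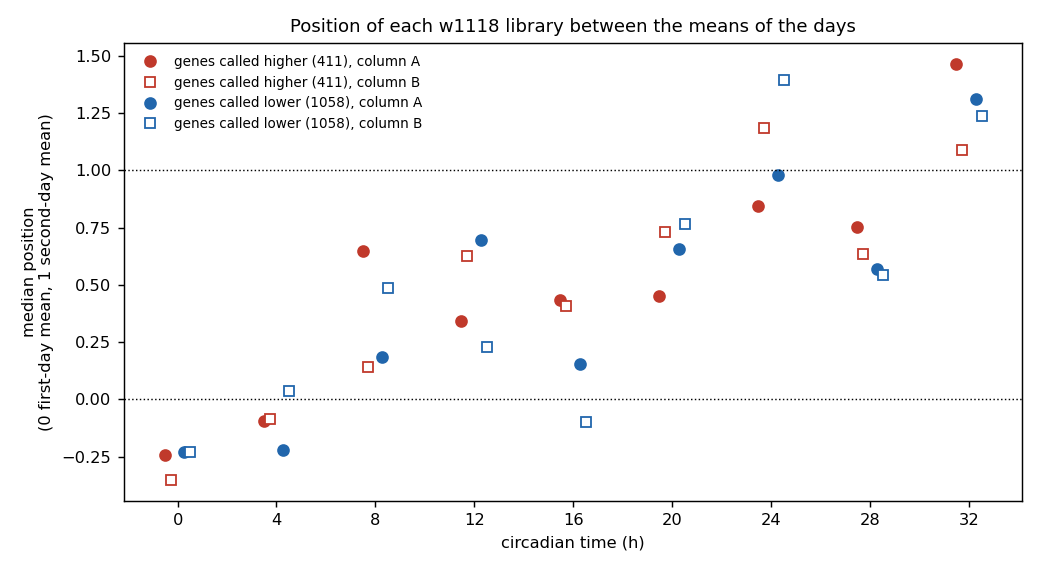
Median position of each w1118 library between the first-day mean (0) and the second-day mean (1) against circadian time in hours, for genes called higher (red) and lower (blue), filled circles for column A and open squares for column B. The daytime libraries set the scale, and the night libraries lie between -0.10 and 0.76.

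Most genes called in w1118 had a change of the same sign in per0. One of their libraries, CT28 B, stood apart: over 20 genes that were higher in w1118 than in per0, chosen without it, it lay 41.9% of the way from the per0 median to the w1118 median (median over genes), and the other 17 per0 libraries lay at -1.09 to 2.79%. Over 20 genes higher in per0 it lay at 53.7%, beside -45.9 to 37.1% in the other 17. Changes in per0 are therefore given without it, and the test of the difference with and without it. In per0, 648 genes were called higher (5.28%) and 1621 lower (13.2%) without that library, and 744 (6.3%) and 1536 (13%) with it. Of the 411 genes called higher in w1118 at 10 CPM or more, 366 were above 0 in per0, and of the 1058 called lower 927 were below 0, where 3138 of all 5177 such genes were. The median change was 0.77 in w1118 and 0.66 in per0 for the first set, and -0.79 and -0.53 for the second. Both sets were chosen for their change in these w1118 libraries, which by itself makes the w1118 medians larger. The smaller medians in per0 therefore do not show a weaker change there. Mitochondrial ribosomal proteins had a median of -1.12 in w1118 and -1.03 in per0, and complex I -1.12 and -0.68. Fatty acid synthesis had -0.94 in w1118 and -0.09 in per0, which became -0.30 with that library. Cytosolic ribosomal proteins had -0.51 and 0.03, the latter -0.06 with that library. These differences of list medians were not tested as such.

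A difference between the genotypes in the second-day change was called for 59 of 11815 genes (0.499%), 50 with the per0 change above that of w1118 (0.423%) and 9 below (0.0762%). Without CT28 B of per0 it was called for 186 of 12283 (1.51%), 120 above and 66 below, all 59 among them. Omitting 1 other library gave 28 to 72 calls, with 39 or fewer without CT0 A, CT0 B, CT4 A, CT8 A, CT24 B, CT32 A or CT32 B of w1118 or CT0 A, CT8 A, CT8 B, CT24 A or CT32 A of per0. For the storage protein Lsp2 the per0 change exceeded that of w1118 by 8.26 ± 1.43, adjusted p = 0.0122. In per0 it measured 0 to 1.83 CPM (median 0.306) on the first day and 66.3 to 3714 CPM (median 3063) on the second without CT28 B, beside 15.9 to 1784 CPM (median 226) on the first day and 2794 to 4692 (median 3827) on the second in w1118. The second-day medians were thus close, while the first-day levels of the genotypes did not overlap. CG7763 differed by 7.19 ± 1.32, adjusted p = 0.0168, and CARPB, a carbonic anhydrase-related protein, by 3.69 ± 0.43, adjusted p = 0.00113. First-day levels in per0 were at most 0.115 CPM for CG7763 and reached 0 for Lsp2, so the fitted sizes of these 2 differences depend on the prior count. CG3961 (2.68 ± 0.35, adjusted p = 0.00311) and the transcription factor Kr (2.13 ± 0.31, adjusted p = 0.00425) also rose more in per0, and both had lower first-day levels there, such as 9.02 to 25.6 CPM (median 16.3) for Kr beside 68.5 to 127 CPM (median 73.1) in w1118. Kal1 differed by 2.84 ± 0.44, adjusted p = 0.00733 and AnxB10, an annexin, by 2.10 ± 0.35, adjusted p = 0.00906.

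In the other direction, the caspase gene Decay, higher on the second day in w1118, had a smaller change in per0, the per0 minus w1118 difference being -2.37 ± 0.42, adjusted p = 0.0136. In per0 it measured 9.56 to 45.7 CPM (median 23.6) and 21.3 to 54.8 CPM (median 40.2), so that the days overlapped there. CG17260 fell in per0 and did not pass in w1118 (-2.32 ± 0.34, adjusted p = 0.005), and CG3700 rose in w1118 but not in per0 (-1.57 ± 0.27, adjusted p = 0.0108). In per0 its change was -0.50 ± 0.19 (adjusted p = 0.0765) with all libraries and -0.66 ± 0.19 (adjusted p = 0.0231) without CT28 B. Acly, the source of cytosolic acetyl-CoA, which fell in w1118, had a per0 change higher by 1.55 ± 0.34, adjusted p = 0.044. Its per0 levels were 2531 to 5357 CPM (median 3949) and 1159 to 6370.2 CPM (median 4717). That call, and those of Lsp1gamma (2.99 ± 0.64, adjusted p = 0.0416), the yolk protein gene Yp3 (4.74 ± 1.01, adjusted p = 0.0407), CG4269 (-2.10 ± 0.42, adjusted p = 0.0273), CG13315 (-1.92 ± 0.40, adjusted p = 0.0361), CG32795 (-0.90 ± 0.17, adjusted p = 0.02), Fnta (-0.77 ± 0.16, adjusted p = 0.0318) and Odc2 (1.88 ± 0.36, adjusted p = 0.02), were each lost on omission of at least 1 of several w1118 or per0 libraries. Adjusted p then reached 0.146 at most.

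**Figure D5:**
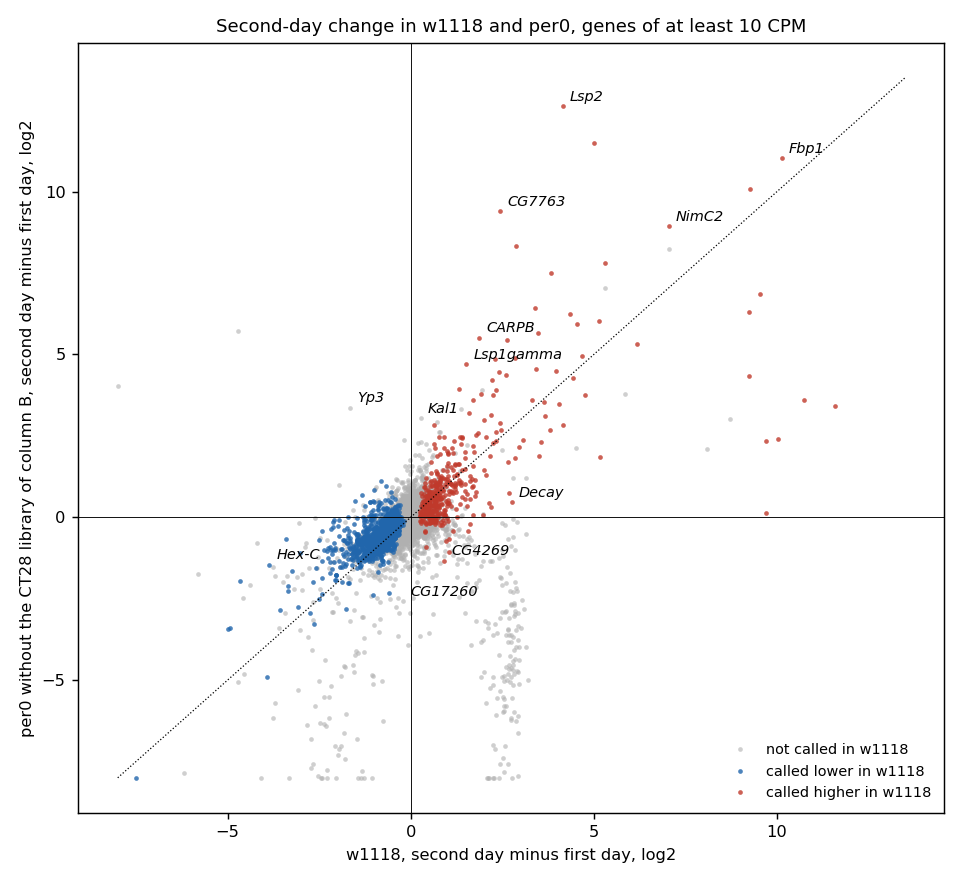
Second-day minus first-day change (log2) in w1118 on the x axis and per0 without its CT28 library of column B on the y axis, for genes of at least 10 CPM, with values beyond -8 drawn there. Genes called lower in w1118 lie mostly below 0 in per0, Lsp2 and CG7763 lie above the dotted line of equal change, and a vertical band of uncalled genes near 2.5 in w1118 lies below 0 in per0.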

How the data were processed

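The deposited table used here holds raw counts per gene for each w1118 library, and a second one holds those of per0. Both list 17610 genes, and all columns were matched to their samples by name. The authors' counts were made with STAR 2.7.9a and featureCounts, and edgeR and DESeq2 1.30.1 are also named, all per the submitters' processing notes. These give neither an order nor a role. The genome build and annotation are not given in the sources used here. Per the labels' protocols, total RNA was amplified with SMART-Seq v4, which keeps neither strand nor molecular identifiers, so floors cover counting error only. The ± values also hold the spread between libraries. Total counts per library were 16948806 to 23839836. The deposited normalized tables were not used, and no sequence or coordinate is given.

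The counts were analysed in R 4.3.3 with edgeR 4.0.16, with trimmed mean scaling over the 12 libraries, the filterByExpr minimum by time group, and a quasi-likelihood test of day with clock phase as a factor. Calls are at a Benjamini-Hochberg adjusted p under 0.05 over all genes tested, and changes above 1.5-fold were tested with glmTreat. The change at each phase and its difference between phases used 1 mean per time. The difference between genotypes used the 24 daytime libraries of both. CPM values were scaled over all 36 libraries. Alternatives used DESeq2 1.42.0 and limma 3.58.1, other scalings, filters and covariates, and omission of single libraries or phases. On simulated data for the day comparison, with 11394 genes, 19% of genes changed by 1 log2 and 54% of those changed by 2 were recovered, and 2.67% of calls were false. The simulation drew each gene independently, with as many rises as falls, no phase effect and no variation shared by the genes of a library. Its false share therefore need not hold for the real calls. The sample titles call the 2 libraries of a time biological replicates, but do not say that they came from separate cultures. Part of the spread between them may therefore be technical. With phase and day as the only terms, p-values for day measure that spread together with differences of the change between phases. With the spread from duplicates only, 2112 genes were called in place of 1715.

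The members and gene lists were chosen with earlier results of these data known. Genes were named by rule: the 15 largest changes each way among called genes of at least 10 CPM without overlap, up to 4 of smallest p in each list, the 5 of smallest p for phase by day, up to 10 each way for genotype by day, the 15 with most counts, and clock genes. Other genes and families were named after their values were seen, namely members of the same lists or families that stand beside these.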

Additional observations from a re-analysis of the deposited data

Results flagged for a closer look

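In 400 checks of a gene's 6 libraries of a day for a single library far from the other 5, 13 stood out, where chance alone gives about 1 in 20, or 20. On the first day CT8 A was the high library for Tsf1 (781 CPM), Hn (415 CPM), CG9577 (166 CPM) and CG7342 (4.20 CPM). CT8 B was the high one for the glue genes Sgs3 (0.561 CPM), Sgs5 (0.386 CPM) and Eig71Ee (0.140 CPM), all scarce, and the low one for colt (185 CPM), RpL24 (477 CPM), PheRS-m (33.7 CPM) and TyrRS-m (16.2 CPM). On the second day CT32 A was the high library for Tsf1 (2258 CPM) and foxo (41.2 CPM).

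The second-day change differed between per0 and w1118 by edgeR's test of genotype by day for 19 named genes. The per0 change was higher by 8.26 for Lsp2, 7.19 for CG7763, 4.74 for Yp3, 3.69 for CARPB, 2.99 for Lsp1gamma, 2.84 for Kal1, 2.68 for CG3961, 2.13 for Kr, 2.10 for AnxB10, 1.88 for Odc2, 1.55 for Acly and 1.33 for CG4860, in log2. The difference, per0 minus w1118, was -2.37 for Decay, -2.32 for CG17260, -2.10 for CG4269, -1.92 for CG13315, -1.57 for CG3700, -0.90 for CG32795 and -0.77 for Fnta.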

How the results depend on the processing

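No named gene called for the day changed direction under another setting. Of 197 called named genes, 79 kept the call under every alternative run and 118 lost it in at least 1, 160 keeping it with each library left out in turn. The change of apolpp, not called, turned from negative to 0.075 with gonad markers as a covariate. The day count of 1715 was 2750 with DESeq2, 882 with the gonad covariate, 557 without CT0 and CT24, 699 without CT8 and CT32, and 949 to 1766 with 1 library left out. It moved by less than 1.5 times with limma-voom (1867), other scalings, other filters, all 18 w1118 libraries, the roX covariate and the spread from duplicates, although the higher calls among them, 521, were 920 with the roX covariate and 953 with all 18 libraries. Changes above 1.5-fold numbered 83 at 2-fold and 150 to 497 with 1 library left out. DESeq2 called 4787, 605 and 1185 genes at phases 0, 4 and 8, and no filter on low counts left 1019, 22 and 114. At phase 4, median-ratio size factors gave 0 and a filter of 10 CPM 85. With 1 library left out the ranges were 111 to 2105, 0 to 104 and 0 to 700. The difference between phases was called for 470 genes with DESeq2 and 1 with the 10 CPM filter. The genotype difference was called for 547 genes with DESeq2, 370 without both CT28 libraries of each genotype, 737 without CT4 and CT28 of both, an alternative chosen after seeing the data, and 28 to 186 with 1 library left out. The cause of these shifts was not tested. No paired analysis was possible because the columns carry letters that no label ties to the replicate numbers. A fit with the column letter as a block, whose meaning no label gives, called 1957 genes. At 3 counts, genes under 0.126 to 0.177 CPM were at the floor.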
